A study of Mus musculus with 15 samples.

Results

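Transcript levels of XY embryonic germ cell (EGC) lines derived at E12.5 were compared with those of XY embryonic stem cell (ESC) lines, with 3 libraries in each group. EGC are pluripotent lines that grow out when primordial germ cells of the embryo are put in culture, so these libraries hold cultured lines and not germ cells taken from the gonad. ESC are pluripotent lines from the blastocyst. All genes with at least 1 TPM (abundance per length, set to a fixed total in each library) in at least 2 of the 6 libraries were taken, which left 13033 of the 34372 genes in the deposited table, or 37.9%. The table's header calls the groups E12.5 XY EG and XY ES. A further group, 3 E11.5 XY EGC libraries, was used to test what differs between stages of derivation. The remaining 6 libraries of the series (E11.5 XX and XO EGC, XX ESC) entered the fit only as further groups. Per the labels, ESC and EGC were genetically matched, EGC outgrowths arose in medium with 2i and LIF and were then kept on mouse embryonic fibroblast feeders with serum and LIF, and all cells were at passage 6 and sorted for the surface antigen SSEA1. No strain, transgene or further treatment is named, and the labels do not say whether the libraries of a group are separate lines or clones of 1 line. The p-values therefore measure only the spread between these libraries, and line, stage and cell of origin cannot be told apart.

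Genomic imprinting leaves some genes active only on the copy inherited from the mother or from the father. The silent copy is usually marked by DNA methylation at a control region, and proteins such as ZFP57 keep that methylation in early embryos and in ESC. Primordial germ cells erase these marks while they colonise the gonad, and EGC lines can keep the erased state. Loss of methylation turns on the second copy of many paternally expressed genes and turns off genes that depend on a methylated control region. DUSP9, the phosphatase in the study's title, acts on ERK kinases, whose targets are also described here.

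The 250 bases before an annotated start are shown for 6 imprinted genes whose values are described below. Mest, Plagl1, Snrpn, Phlda2 and Grb10 were called under all 8 alternative settings and without each of the 6 compared libraries in turn. Mcts2 is shown because it sits inside a host gene that moved the other way. They come from RefSeq on GRCm38.p6, read 5′ to 3′ on the strand of the gene, and capitals mark the letters TGCCGC or their reverse complement GCGGCA, the core motif bound by ZFP57. Mest, Plagl1, Mcts2 and Snrpn were higher in E12.5 XY EGC, and Phlda2 and Grb10 were lower.
Mest, chr6:30737800-30738049, plus strand: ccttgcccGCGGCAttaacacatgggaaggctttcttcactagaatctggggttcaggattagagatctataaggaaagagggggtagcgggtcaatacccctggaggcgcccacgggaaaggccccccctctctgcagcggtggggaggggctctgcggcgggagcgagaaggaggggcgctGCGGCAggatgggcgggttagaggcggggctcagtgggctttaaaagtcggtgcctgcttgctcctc
Plagl1, chr10:13090582-13090831, plus strand: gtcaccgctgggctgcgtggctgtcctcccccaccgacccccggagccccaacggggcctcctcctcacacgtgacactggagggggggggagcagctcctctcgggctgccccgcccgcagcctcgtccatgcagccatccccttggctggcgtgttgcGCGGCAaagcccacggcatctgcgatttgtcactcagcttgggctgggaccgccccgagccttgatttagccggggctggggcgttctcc
Mcts2, chr2:152686898-152687147, plus strand: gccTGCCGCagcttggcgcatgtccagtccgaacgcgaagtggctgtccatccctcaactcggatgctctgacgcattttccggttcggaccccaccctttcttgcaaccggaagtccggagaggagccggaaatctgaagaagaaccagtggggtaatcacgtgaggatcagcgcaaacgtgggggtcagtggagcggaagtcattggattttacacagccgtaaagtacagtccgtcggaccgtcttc
Snrpn, chr7:60005200-60005449, minus strand: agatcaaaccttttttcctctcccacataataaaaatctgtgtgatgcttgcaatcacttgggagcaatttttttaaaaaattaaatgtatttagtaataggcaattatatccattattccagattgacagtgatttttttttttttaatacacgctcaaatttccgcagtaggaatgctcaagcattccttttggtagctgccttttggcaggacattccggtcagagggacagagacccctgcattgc
Phlda2, chr7:143502525-143502774, minus strand: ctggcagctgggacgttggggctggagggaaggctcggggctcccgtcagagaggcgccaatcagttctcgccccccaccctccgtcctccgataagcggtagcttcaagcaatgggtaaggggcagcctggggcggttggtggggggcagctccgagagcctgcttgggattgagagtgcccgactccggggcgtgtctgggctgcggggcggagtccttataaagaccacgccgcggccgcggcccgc
Grb10, chr11:12037421-12037670, minus strand: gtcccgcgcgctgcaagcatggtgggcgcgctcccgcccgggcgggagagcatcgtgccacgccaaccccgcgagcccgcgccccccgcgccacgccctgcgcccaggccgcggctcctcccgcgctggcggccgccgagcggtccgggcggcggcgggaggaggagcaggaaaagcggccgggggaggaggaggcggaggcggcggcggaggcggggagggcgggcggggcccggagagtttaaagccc

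The Mest window held 2 matches, the Plagl1 and Mcts2 windows 1 each, and the windows of Snrpn, Phlda2 and Grb10 none. Of the 21 imprinted genes called below, 15 had a window and 4 of these (Mest, Plagl1, Mcts2 and Meg3) had a match in at least 1 of their windows, against 2 of the 19 imprinted genes with a window that were not called. Over all 32851 windows 8.68% held the motif, and 9.84% of genes had a window with it. The printed windows of Grb10, Phlda2, Mcts2, Plagl1 and Mest held 40, 21, 20, 19 and 14 CG pairs, against a median of 6 over all windows, so genes that were higher and genes that were lower had such windows. The printed window of Snrpn, which was higher, held 3. Another window of Grb10 held 8, and that of Slc22a18, also lower, held 0. A match describes letters in these windows and no bound site.

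The labels of sex and pluripotency were checked first. Xist, the RNA that silences the X chromosome in cells with more than 1 of them, was listed between 0.0453 and 0.0789 TPM in E12.5 XY EGC and between 0.0587 and 0.0918 TPM in XY ESC. Levels of Xist in the XX lines were not set beside these, so Xist does not tell XY from XX lines here. Eif2s3y, a Y-linked gene, was at 96.9 to 126 TPM in E12.5 XY EGC and at 102 to 137 TPM in XY ESC. Ddx3y and Uty were above 13 TPM in all 6 libraries, Kdm5d, Zfy2 and Usp9y were under 1 TPM, and Sry was listed at 0. Pou5f1, a core pluripotency factor, was at 1189, 1119 and 1024 TPM in E12.5 XY EGC against 1200, 1113 and 1304 TPM in XY ESC. None of the 18 tested general pluripotency genes was called by limma, where 3.94% of all genes were called. Of the 18, 3 had an unadjusted p under 0.05 (limma), as had 22.9% of all genes. Ddx4 and Dazl, genes of the germ line, were at 34.3 to 46.4 and 15.5 to 30.7 TPM in the E12.5 EGC, and the ESC had 36.7 to 49.6 and 20.2 to 27.8 TPM.

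Between 12762 and 12910 genes reached 1 TPM in the E12.5 XY EGC libraries and between 12597 and 12644 in the XY ESC libraries, and mitochondrial transcripts took 4.99% to 5.61% and 4.94% to 5.49% of the TPM. The read depth behind the TPM is unknown. Markers of other cells were checked next. Of 25 fibroblast markers, which could come from the feeders, 11 were under 1 TPM in all 6 libraries, among them Col3a1, Dcn, Lum and Postn, and none of the 13 tested was called (limma; 3 had an unadjusted p under 0.05). Of all genes, 3.94% were called and 22.9% had an unadjusted p under 0.05 (limma). The summed level of the fibroblast list was 735 to 850 TPM in E12.5 XY EGC, against 629 to 674 TPM in XY ESC, so the groups did not overlap. The median log2 fold change of the tested fibroblast markers was 0.30. Of 20 markers of the somatic cells of the gonad, 12 were under 1 TPM throughout, Nr5a1, Amh, Sox9 and Foxl2 included, and summed levels overlapped at 24.05 to 31.1 TPM in the EGC and 24.6 to 26.6 TPM in the ESC. In bulk samples such as these, fewer cells of a type and less RNA per cell cannot be told apart.

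Across all 13033 genes, 485 (3.72%) were higher in E12.5 XY EGC than in XY ESC and 28 (0.215%) were lower, together 513 or 3.94% (limma on log2(TPM + 1), Benjamini-Hochberg adjusted p under 0.05). Most of these changes were small. Only 30 genes (0.23%) were at least 2-fold higher and 4 (0.0307%) at least 2-fold lower, and the 4 that fell were all imprinted: Grb10, Phlda2, Cdkn1c and Slc22a18. The median log2 fold change of all genes was 0.08, and 94.5% of called genes were higher. That share depended on how the libraries were scaled: it was 65.9% (164 higher, 85 lower) after scaling each library by its median ratio and 70.0% (91 higher, 39 lower) after quantile scaling. The number called also rested on single libraries, with 29 higher and 6 lower genes without E12.5 XY EGC replicate 1, 805 and 50 without replicate 3 and 63 and 6 without replicate 2. Without XY ESC replicates 1, 2 and 3 the counts were 56 and 6, 63 and 5, and 76 and 8. Across genes, E12.5 XY EGC replicate 3 had a correlation of 0.9855 and 0.9868 with replicates 1 and 2 of its own group, and of 0.989, 0.9866 and 0.9856 with XY ESC replicates 1, 2 and 3. Replicates 1 and 2 of the EGC had 0.9801 to 0.9845 with the XY ESC libraries and 0.9885 with each other.

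**Figure D1:**
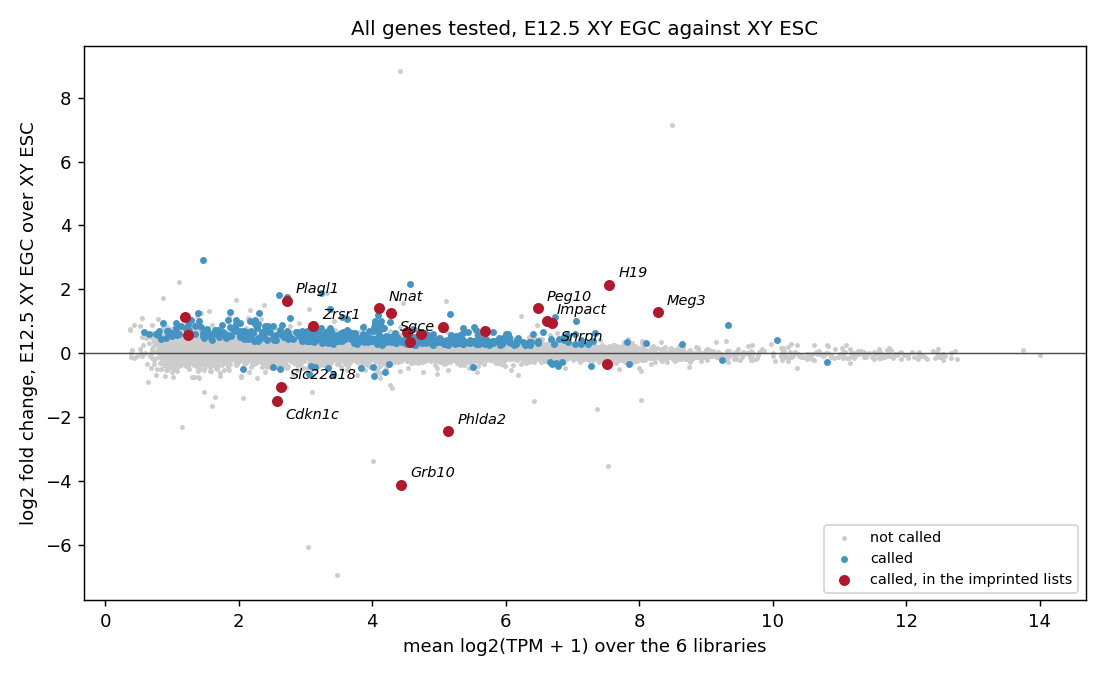
Each point is a gene tested in E12.5 XY EGC against XY ESC, with the mean log2(TPM + 1) of the 6 libraries on the x axis and the log2 fold change on the y axis. Called genes are blue and called imprinted genes red. Grb10 at -4.12 and Phlda2 at -2.45 lie far below the other called genes.

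Imprinted genes made up much of what was called under every setting. Of the 513 called genes, 26 were called in the same direction under all 8 alternative settings and without each of the 6 libraries in turn, and 12 of these 26 belonged to the imprinted lists. Below, the number of these 14 refits in which a call held is given for genes that lost it in some; a gene that the filter of 5 TPM removed has 13. These lists hold 41 tested genes, of which 21 were called, where 3.94% of all genes were called. They had been chosen with earlier results of these data known, so their share is a description.

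Among paternally expressed imprinted genes, 13 of 23 tested were higher in E12.5 XY EGC, 1 was lower and 9 were not called, with a median log2 fold change of 0.69. Of all genes tested, 3.72% were higher and 0.215% lower, and the median was 0.08. Another 6 genes of the paternally expressed list, among them Nap1l5, Magel2 and Rtl1, stayed under 1 TPM. Snrpn (chromosome 7, 59982495 to 60140219), which encodes a splicing protein in the Prader-Willi region, had 149, 132 and 145 TPM in E12.5 XY EGC, against 74.3, 74.2 and 72.1 TPM in XY ESC. All EGC libraries lay above all ESC libraries, and the mean was 1.93 times as high (log2 fold change 0.94 ± 0.06 SE, adjusted p = 5.26e-06, limma). Impact (chromosome 18, 12955852 to 12992950), a regulator of translation under stress, had 118, 142 and 155 TPM in the EGC and 75.6, 72.0 and 59.7 TPM in the ESC. Its groups did not overlap either, and its mean was 2.01 times as high (0.99 ± 0.12, limma adjusted p = 0.00101).

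Zrsr1, a retrogene on chromosome 11 for a splicing factor, was at 10.7, 10.4 and 10.8 TPM in E12.5 XY EGC and at 5.52, 6.16 and 4.81 TPM in XY ESC. The EGC mean of Zrsr1 was 1.93 times that of the ESC. Mest, an enzyme of the hydrolase fold, was at 46.1, 45.4 and 39.0 TPM in the EGC against 23.1, 25.1 and 24.3 TPM in the ESC, 1.80 times as high. Over the 13 paternally expressed genes called higher, mean ratios ran from 1.55 (Mcts2), 1.61 (Sfmbt2) and 1.64 (Peg3) to 3.81 (Plagl1) and 4.42 (Airn), with Snrpn, Impact, Zrsr1 and Mest in between. Peg10, a retrotransposon-derived gene needed in placenta, had 183, 123 and 131 TPM in E12.5 XY EGC against 54.9, 61.3 and 46.4 TPM in XY ESC, and Sgce beside it had 27.1, 29.7 and 30.5 TPM against 11.2, 12.7 and 11.2 TPM. The groups did not overlap for these genes. Their log2 fold changes were 1.40 ± 0.22 and 1.25 ± 0.14 (limma adjusted p = 0.00911 and 0.000876), and Peg10 missed the threshold without E12.5 XY EGC replicate 1 (adjusted p = 0.0566).

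Plagl1, a zinc finger transcription factor, had the largest fold change of the paternally expressed genes on the log2(TPM + 1) scale, although Airn, a gene of low level, had the higher ratio of mean TPM. It was at 14.2, 9.74 and 8.71 TPM in E12.5 XY EGC against 2.38, 4.30 and 1.87 TPM in XY ESC (log2 fold change 1.65 ± 0.23, limma adjusted p = 0.00535). Nnat, a small membrane protein of neurons and endocrine cells, was at 30.2, 31.2 and 21.1 TPM in the EGC and 8.16, 10.2 and 10.3 TPM in the ESC (1.42 ± 0.14, limma adjusted p = 0.000257). Neither gene's groups overlapped. Peg3, a zinc finger gene, averaged 64.9 ± 9.46 TPM in E12.5 XY EGC and 39.7 ± 4.79 TPM in XY ESC (SD, n = 3 each). Sfmbt2, a Polycomb group protein, averaged 28.1 TPM in the EGC and 17.4 TPM in the ESC. Both were called higher, and both calls were lost without EGC replicate 1 (limma adjusted p = 0.0659 and 0.0667).

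In 2 pairs a paternally expressed gene that sits inside another gene rose while the host gene fell. Mcts2, a retrogene within H13 on chromosome 2, was at 35.6, 26.3 and 33.8 TPM in E12.5 XY EGC against 20.3, 18.3 and 23.04 TPM in XY ESC. H13, a signal peptide peptidase, was at 15.4, 14.1 and 12.02 TPM in the EGC, against 21.96, 22.1 and 20.4 TPM in the ESC, and fell by 0.61 on the log2 scale (SE 0.12, limma adjusted p = 0.0203). Zrsr1 lies within Commd1, a copper metabolism gene, which was at 90.1, 90.6 and 92.5 TPM in the EGC and 117, 126 and 107 TPM in the ESC and fell by 0.35 (SE 0.07, limma adjusted p = 0.0236). Commd1 was chosen after its values were seen. These calls were not steady. H13 kept its call in 1 of the 6 fits without 1 library (limma adjusted p up to 0.0735), Commd1 in 2 of 6 (up to 0.0946) and Mcts2 in 3 of 6 (up to 0.0742), and in the 6 libraries alone Commd1 and Mcts2 were not called (adjusted p = 0.0603 and 0.0553). Nespas, an antisense RNA at the Gnas locus, averaged 1.87 TPM in E12.5 XY EGC and 0.951 TPM in XY ESC and was called higher, while Gnas, which encodes a G protein subunit, fell by 0.33 (SE 0.08, limma adjusted p = 0.034). The call for Nespas held in 1 of 13 refits and that for Gnas in 5 of 14. The sources used here do not say whether counting used strand, so reads of overlapping genes such as Nespas and Gnas, Airn and Igf2r, or Zrsr1 and Commd1 cannot be told apart. Snurf, which shares its transcript with Snrpn, was at 74.2, 176 and 103 TPM in the EGC and 55.3, 36.7 and 58.5 TPM in the ESC and was not called (limma adjusted p = 0.0546). Levels of Snurf and Snrpn are uncertain for that reason.

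Maternally expressed imprinted genes moved both ways: of 18 tested, 4 were lower in E12.5 XY EGC, 3 were higher and 11 were not called. Among all genes 0.215% were lower and 3.72% higher. The median log2 fold change of the 18 was 0.09, close to the 0.08 of all genes. The largest change of any called gene was that of Grb10 (chromosome 11, 11930508 to 12038683), an adaptor protein that restrains insulin and growth factor receptors. It had 4.37, 4.14 and 4.06 TPM in E12.5 XY EGC, against 94.6, 87.2 and 86.4 TPM in XY ESC. The ESC mean of Grb10 was 21.3 times the EGC mean, and no library came near the other group (log2 fold change -4.12 ± 0.64 SE, limma adjusted p = 0.00903). Its standard error is large because the fit shares the spread of all groups, and 1 of the E11.5 XY EGC libraries stood apart at 97.3 TPM, with 8.36 and 7.13 TPM in the others.

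The other 3 genes that fell at least 2-fold lie beside each other on chromosome 7 in the domain controlled from Kcnq1. Phlda2 (143501545 to 143503150), a brake on placental growth, had 13.4, 15.0 and 13.9 TPM in E12.5 XY EGC against 78.6, 72.8 and 93.3 TPM in XY ESC. The ESC mean was 5.79 times the EGC mean (log2 fold change -2.45 ± 0.12, limma adjusted p = 1.37e-07). Cdkn1c (143458339 to 143461050), an inhibitor of cyclin-dependent kinases, had 2.84, 2.03 and 2.79 TPM in the EGC and 8.07, 8.72 and 10.1 TPM in the ESC (-1.49 ± 0.17, limma adjusted p = 0.000866). Slc22a18, a membrane transporter, had 3.40, 3.47 and 3.11 TPM in the EGC and 8.29, 7.85 and 7.75 TPM in the ESC (-1.05 ± 0.10, limma adjusted p = 0.000144). None of the 3 genes overlapped between the groups. Other listed genes of this domain were not called: Cd81 and Tssc4 each had a log2 fold change of 0.02, Ascl2 of -0.39 and Osbpl5 of 0.32.

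H19 and Meg3, long maternally expressed RNAs whose control regions are methylated on the paternal copy, were higher. H19, which lies beside Igf2, was at 385, 371 and 431 TPM in E12.5 XY EGC and at 83.1, 87.0 and 94.6 TPM in XY ESC, 4.48 times as high (log2 fold change 2.15 ± 0.42, limma adjusted p = 0.02). The call for H19 was lost in 5 of the 6 fits without 1 library, with limma adjusted p up to 0.0825, although its groups lay far apart. Igf2, the paternally expressed growth factor next to H19, was at 35.2, 31.4 and 18.4 TPM in the EGC and 11.9, 19.4 and 15.1 TPM in the ESC and was not called (limma adjusted p = 0.191). Meg3, in the Dlk1 domain, was at 436, 537 and 483 TPM in E12.5 XY EGC and 199, 182 and 214 TPM in XY ESC, 2.45 times as high (1.28 ± 0.10, limma adjusted p = 1.55e-05). Dlk1 itself was at 2.23, 2.22 and 3.03 TPM in the EGC and 1.31, 0.694 and 1.79 TPM in the ESC, not called. Igf2r, which clears IGF2 from the cell surface, averaged 25.9 ± 0.894 TPM in the EGC and 20.1 ± 1.01 TPM in the ESC (SD, n = 3 each). Airn, the paternally expressed antisense RNA of that locus, averaged 2.50 TPM in the EGC and 0.566 TPM in the ESC, and its call held in 5 of 13 refits. The small rise of Igf2r, 0.35 on the log2 scale, did not pass the test after either scaling or without any 1 of the 6 libraries, and held in 3 of 14 refits.

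**Figure D2:**
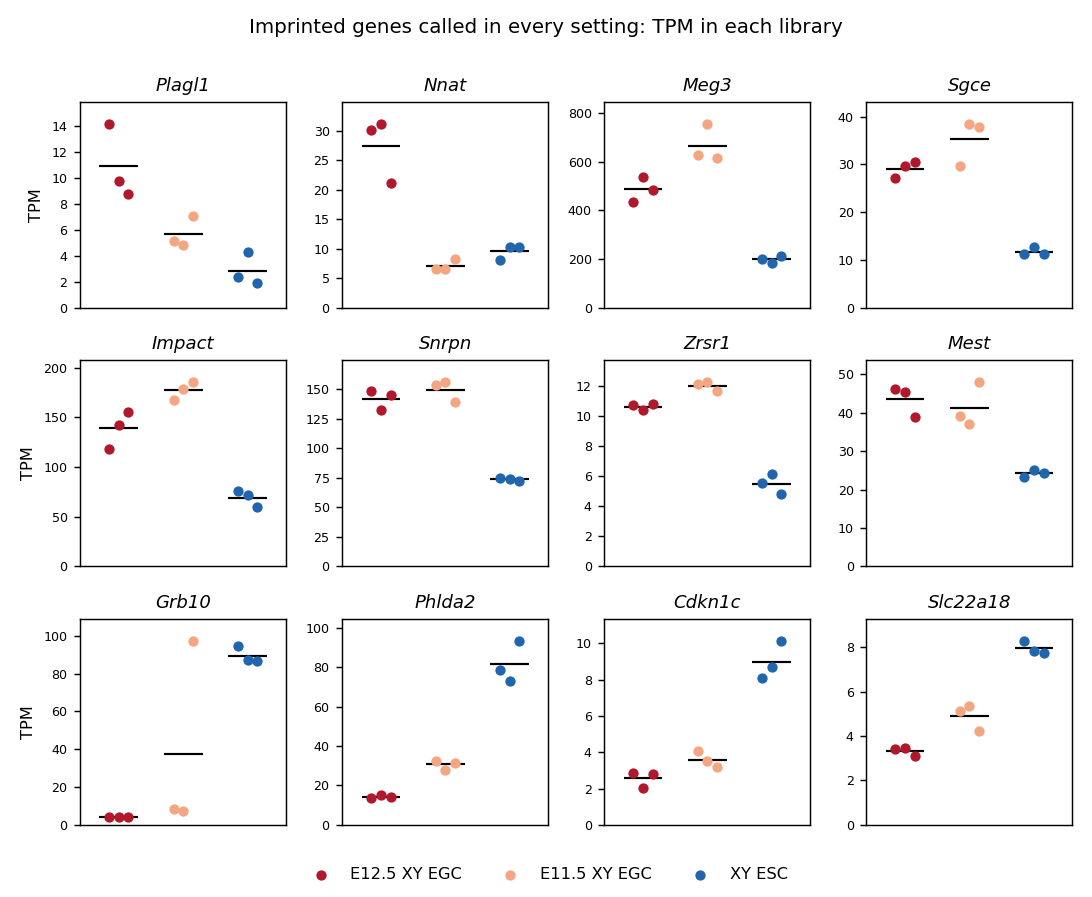
TPM of the 12 imprinted genes called under every setting, with points for single libraries, bars for group means and axes starting at 0. In the top 2 rows each E12.5 XY EGC library lies above each XY ESC library, and in the bottom row below. Grb10 in E11.5 XY EGC has 1 library at 97.3 TPM.

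ERK signalling is a kinase pathway that drives exit from naive pluripotency. Of 36 tested ERK targets and feedback genes, 7 were higher in E12.5 XY EGC and none lower (limma, adjusted p under 0.05; at an unadjusted p under 0.05, 21 and 1). Over all genes 3.72% were higher, and 22.9% passed 0.05 before adjustment. The log2 fold change was positive for 35 of the 36, against 68.7% of all genes, and its median was 0.31 against 0.08. Egr1, an immediate-early transcription factor, was at 52.5, 63.3 and 47.2 TPM in E12.5 XY EGC against 19.2, 28.5 and 20.2 TPM in XY ESC (log2 fold change 1.24 ± 0.15, limma adjusted p = 0.00108). Jun, a subunit of the AP-1 factor, was at 21.99, 29.1 and 21.1 TPM in the EGC against 9.91, 12.6 and 11.4 TPM in the ESC (1.02 ± 0.13, limma adjusted p = 0.00188). Both were called under every setting, and their groups did not overlap. Fos, a partner of Jun, was at 102, 123 and 127 TPM in the EGC and 73.9, 73.0 and 75.8 TPM in the ESC, and Fosb at 5.71, 7.05 and 4.85 TPM in the EGC and 1.99, 2.61 and 2.28 TPM in the ESC. Cyr61, a secreted matrix protein, and Dusp4, an ERK phosphatase, were higher by 0.78 and 0.50, and Dusp14, another phosphatase, by 0.53. Of 14 refits the calls for Fos, Dusp4 and Dusp14 held in 4, 5 and 4, and none of the 3 passed after either scaling or with fibroblast markers entered as a covariate. Cyr61 kept its call in 10 of 14 and Fosb in 10 of 13. The transcription factors Etv4 and Etv5 and the inhibitors Spry2 and Spry4, long-term feedback genes of the pathway, were not called, with log2 fold changes of 0.19, 0.25, 0.21 and 0.36. Dusp9 was at 86.2, 79.8 and 68.6 TPM in E12.5 XY EGC and 71.8, 67.0 and 76.3 TPM in XY ESC. The groups overlapped and Dusp9 was not called (0.12 ± 0.08, limma adjusted p = 0.426). After median-ratio scaling 4 ERK genes were called, and the same number after quantile scaling.

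A set of epithelial and placental genes was also higher. Of 18 trophoblast markers 10 were tested, 6 were higher in E12.5 XY EGC and none was lower (limma; 7 and 1 at an unadjusted p under 0.05), with a median log2 fold change of 0.71. Of all genes, 3.72% were higher and 22.9% had an unadjusted p under 0.05 (limma), and the median was 0.08. The list summed to 568 to 742 TPM in E12.5 XY EGC and 298 to 327 TPM in XY ESC. These 6 were 4 keratins, Tead4 and Peg10, which is also counted among the imprinted genes. Krt8 and Krt18, partners in the filaments of simple epithelia, were at 199, 152 and 128 TPM and at 218, 172 and 173 TPM in E12.5 XY EGC, against 65.5, 77.3 and 68.8 TPM and 91.1, 102 and 85.8 TPM in XY ESC. Their groups did not overlap. Krt7 averaged 22.5 TPM in the EGC and 10.7 TPM in the ESC, and Krt19 averaged 70.05 TPM in the EGC and 43.9 TPM in the ESC. Of the other markers, Cdx2, Elf5, Tfap2a, Gcm1, Rhox4b and Prl3d1 stayed under 1 TPM in all 6 libraries. Eomes, Hand1, Esx1 and Ascl2 were tested and not called, with log2 fold changes of 0.16, 0.75, 0.25 and -0.39. The calls for Krt8, Krt18 and Krt7 were lost after either scaling and without EGC replicate 1 (limma adjusted p = 0.142, 0.167 and 0.142), and held in 4, 3 and 2 of 14 refits. Krt19 and Tead4 passed under all 8 alternative settings, but each was called in 1 of the 6 fits without 1 library (adjusted p up to 0.0777 and 0.08).

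Of the 20 tested NODAL and BMP targets 3 were higher and none lower (limma; 5 and 2 at an unadjusted p under 0.05), with a median of 0.05, against 0.08 over all genes. Among all genes 3.72% were higher, and 22.9% had an unadjusted p under 0.05 (limma). Id3, a target of BMP signalling, was at 11.8, 10.8 and 5.72 TPM in the EGC and 2.70, 4.04 and 4.45 TPM in the ESC (log2 fold change 1.1 ± 0.24, limma adjusted p = 0.0285). Col4a1 and Col4a2, the chains of basement membrane collagen, were at 19.3 to 22.6 and 15.998 to 18.7 TPM in E12.5 XY EGC, against 10.8 to 11.7 and 6.98 to 7.81 TPM in XY ESC. They were the 2 called genes of the 10 tested endoderm markers, while Sox17, Sox7, Foxa2 and Afp of that list stayed under 1 TPM and were not tested. Gsn, an actin-severing protein, rose by 1.19 on the log2 scale. The calls for Id3, Col4a1 and Gsn held in 5, 5 and 8 of 14 refits, and that for Col4a2 in 13. The summed level of the fibroblast markers was higher in the same libraries, as given above, though none was called. With their mean as a covariate Id3, Col4a1 and Gsn were no longer called (limma adjusted p = 0.0684, 0.0755 and 0.0522), while Col4a2 was (adjusted p = 0.026).

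Of 20 tested genes of the LIF pathway, which sustains mouse pluripotent cells, 4 were higher and none lower (limma; 12 and 1 at an unadjusted p under 0.05), with a median of 0.28. Over all genes 3.72% were higher, 22.9% had an unadjusted p under 0.05 (limma) and the median was 0.08. After median-ratio scaling 2 members were called, and 1 after quantile scaling. Lif itself was at 5.72, 5.83 and 7.42 TPM in E12.5 XY EGC and 3.24, 3.01 and 2.79 TPM in XY ESC (log2 fold change 0.86 ± 0.15, limma adjusted p = 0.0149), and the groups did not overlap. Stat3, the transcription factor of the pathway, rose by 0.29, and Tfcp2l1, a naive pluripotency factor it activates, by 0.60. The phosphatase Ptpn11 rose by 0.39. Stat3 and Tfcp2l1 were the 2 called genes of the 23 tested naive pluripotency genes, where 3.94% of all genes were called. Esrrb, Klf4 and Klf2 of that list were not called, with log2 fold changes of 0.24, 0.33 and 0.26. After quantile scaling Stat3, Tfcp2l1 and Ptpn11 were not called. Lif kept its call in 11 of 13 refits, Stat3 and Tfcp2l1 in 6 of 14 each and Ptpn11 in 4 of 14.

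Of 17 tested WNT targets, 2 were higher and 1 was lower, where 3.72% of all genes were higher and 0.215% lower. These calls were not steady: after quantile scaling none was higher, and with fibroblast markers entered as a covariate none was called (limma). As reported, 8 of the 17 had an unadjusted p under 0.05 (limma), as had 22.9% of all genes. Axin2, a feedback inhibitor of WNT signalling, was at 7.59, 7.63 and 3.70 TPM in E12.5 XY EGC and 2.46, 3.15 and 3.26 TPM in XY ESC, and Tnfrsf19 was also higher. The call for Axin2 held in 3 of 13 refits. Lef1, a transcription factor of the pathway, was at 6.33, 5.55 and 5.06 TPM in the EGC against 7.85, 9.69 and 11.2 TPM in the ESC and fell by 0.66 (SE 0.15, limma adjusted p = 0.0343), a call that held in 6 of 14 refits and in none without 1 library. Lef1 was the only called member of the formative and primed list, of which 22 genes were tested. Fgf15, a growth factor of the early neural plate, fell by 0.68, with 6.19, 7.57 and 8.75 TPM in the EGC against 13.2, 12.98 and 11.3 TPM in the ESC. Neurod1, a neuronal transcription factor, fell by 0.51. Their calls held in 7 and 5 of 14 refits. Rnf213, a large ubiquitin ligase, was the called gene outside the imprinted lists that fell most, with 11.96, 11.3 and 11.8 TPM in the EGC and 18.97, 21.7 and 19.4 TPM in the ESC (log2 fold change -0.73 ± 0.14, limma adjusted p = 0.0195), and was called in all 8 alternative settings and in 1 of the 6 fits without 1 library.

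Genes that set DNA methylation, or are silenced by it, are read against the 3.94% called over all genes. No gene of the 23 tested in the DNA methylation and demethylation machinery was called (limma), and 8 were higher at an unadjusted p under 0.05. Dnmt3a and Dnmt3b, which add new methylation, had log2 fold changes of 0.28 and 0.35 (limma adjusted p = 0.0944 and 0.177), Dnmt1, which copies it, 0.19, Uhrf1, its partner, 0.08, and Tet1, which oxidises it, 0.14. Zfp57 was at 265, 195 and 191 TPM in E12.5 XY EGC and 171, 177 and 188 TPM in XY ESC, not called. Of 36 tested germline genes that are silenced by promoter methylation, 1 was higher: Rec8, a meiotic cohesin, at 22.2, 25.9 and 22.1 TPM in the EGC and 16.6, 17.7 and 17.9 TPM in the ESC (log2 fold change 0.40 ± 0.10, limma adjusted p = 0.0457). The call for Rec8 was lost after either scaling and held in 4 of 14 refits. Of 19 tested genes of primordial germ cells, none was called by limma and 4 had an unadjusted p under 0.05; Prdm14, Prdm1, Dppa3 and Nanos3, regulators of that lineage, were among the 19. Of 5 tested X-linked homeobox genes of the Rhox cluster, Rhox6 and Rhox9 were higher, at 28.4 to 32.9 and 18.6 to 22.8 TPM in E12.5 XY EGC against 15.5 to 20.7 and 10.6 to 14.4 TPM in XY ESC. Rhox5 was at 149, 114 and 100.1 TPM in the EGC and 61.7, 62.9 and 68.6 TPM in the ESC, with no overlap, and just missed the threshold (limma adjusted p = 0.057). After either scaling neither Rhox6 nor Rhox9 was called, nor without any 1 of the 6 libraries.

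The remaining lists held up to 4 calls each. Of 23 tested p53 targets, Btg2, Cdkn1a, Sesn2 and Gtse1 were higher, by 0.34 to 0.41 on the log2 scale, and none lower (limma; 9 and 1 at an unadjusted p under 0.05), where 3.72% of all genes were higher. Of the p53 targets 1 was called after median-ratio scaling, 1 in the 6 libraries alone and none after quantile scaling or with the fibroblast marker covariate. Of 19 tested actin and contractile genes, Myh9 and Actn1 were higher. Further lists held a single higher gene each: Jag2 in the Notch list, Nr2f2 among gonadal markers, Csf1r among blood and endothelial markers, Ube1y1 among the Y-linked genes, Pdk1 in glycolysis, Cbx6 in the Polycomb list, Hira among silencers of retroelements and Sesn2 among ATF4 response genes. Each of these was called in 1 or 2 of the 6 fits without 1 library. No gene was called in the lists of mesoderm, neuroectoderm, mitochondrial transcripts, interferon response, mitosis, HOX genes, the X inactivation centre or the 2-cell-like state. Together the 12 lists without a call held 162 tested members, of which 34 had an unadjusted p under 0.05 (limma), as had 22.9% of all genes.

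**Figure D3:**
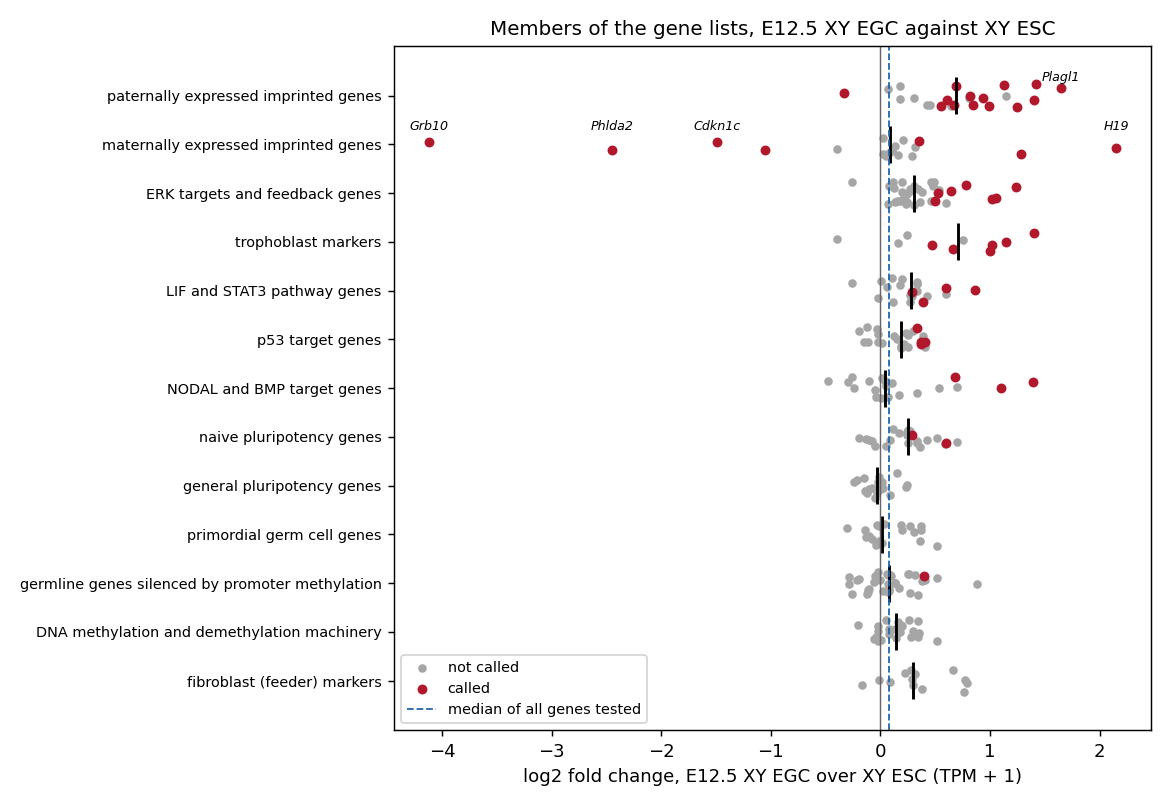
Each point is a tested member of the list named at the left, placed by its log2 fold change of E12.5 XY EGC over XY ESC. Red points were called, black bars are list medians and the dashed line is the median of all genes, 0.08. The imprinted lists reach from -4.12 (Grb10) to 2.15 (H19).

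Which of these differences belong to the E12.5 lines was tested by setting them against E11.5 XY EGC in the same fit. Here 3664 genes (28.1%) were higher in E12.5 XY EGC than in E11.5 XY EGC and 1506 (11.6%) lower, more than between E12.5 XY EGC and XY ESC. After median-ratio scaling the split was 2578 higher and 2537 lower. Against XY ESC, the E11.5 XY EGC differed in 3500 genes (26.9%). The comparisons with ESC share the ESC libraries, so their values are only given side by side. Snrpn, Mest, Zrsr1 and Sgce did not differ between the stages (limma adjusted p = 0.366, 0.576, 0.146 and 0.156). Against XY ESC their log2 fold changes were 0.94, 0.82, 0.84 and 1.25 in the E12.5 lines and 1.01, 0.74, 1.01 and 1.51 in the E11.5 lines. Impact was lower in the E12.5 than in the E11.5 lines (log2 difference -0.36, limma adjusted p = 0.0245), and Meg3 too (-0.45, limma adjusted p = 0.00263).

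For Phlda2 and Slc22a18 the E12.5 lines lay further from XY ESC than the E11.5 lines, while Nnat and H19 had other orders. Phlda2 was at 13.4 to 15.0 TPM in E12.5 XY EGC, at 28.0 to 32.4 TPM in E11.5 XY EGC and at 72.8 to 93.3 TPM in XY ESC, so the 3 groups did not overlap (E12.5 minus E11.5 -1.07, limma adjusted p = 4.89e-05). Slc22a18 kept the same order, with a difference of -0.44 between stages (limma adjusted p = 0.00341), while the difference of -0.37 for Cdkn1c missed the threshold (limma adjusted p = 0.0944). Nnat was at 21.1 to 31.2 TPM in E12.5 XY EGC, at 6.56 to 8.20 TPM in E11.5 XY EGC and at 8.16 to 10.3 TPM in XY ESC. H19 was at 371 to 431 TPM in the E12.5 lines, at 25.2 to 37.1 TPM in the E11.5 lines and at 83.1 to 94.6 TPM in the ESC. The stages lay on opposite sides of the ESC for H19 (E12.5 minus E11.5 3.65, limma adjusted p = 7.01e-05). Igf2 followed the same order, with 18.4 to 35.2, 2.16 to 4.68 and 11.9 to 19.4 TPM, the first and last of which overlap.

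The immediate-early genes were ordered the other way. Fos was at 102 to 127 TPM in E12.5 XY EGC, at 565 to 711 TPM in E11.5 XY EGC and at 73.0 to 75.8 TPM in XY ESC, and Fosb at 4.85 to 7.05, 95.4 to 114 and 1.99 to 2.61 TPM. Egr1 was at 47.2 to 63.3 TPM in the E12.5 lines and 122 to 161 TPM in the E11.5 lines. All 3 were lower in the E12.5 than in the E11.5 lines (log2 differences -2.40, -3.92 and -1.37, limma adjusted p = 1.1e-06, 1.17e-07 and 4.61e-05). Between the stages 11.6% of all genes were lower and 28.1% higher in the E12.5 lines, with a median log2 difference of 0.11. Of the 36 ERK genes, 15 were lower and 2 higher in the E12.5 lines, with a median of -0.21. Dusp9 stood the opposite way, at 68.6 to 86.2 TPM in E12.5 XY EGC and 30.7 to 35.8 TPM in E11.5 XY EGC (log2 difference 1.21, limma adjusted p = 1.71e-06). Mitochondrial transcripts were lower for 10 of 15 genes in the E12.5 lines, where 11.6% of all genes were lower. The largest stage differences also took in Dll1, a Notch ligand, which was lower in the E12.5 lines (5.05 to 10.8 TPM against 40.6 to 56.6 TPM in the E11.5 lines), and Rhox6, which was higher (28.4 to 32.9 TPM against 3.91 to 5.31 TPM).

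**Figure D4:**
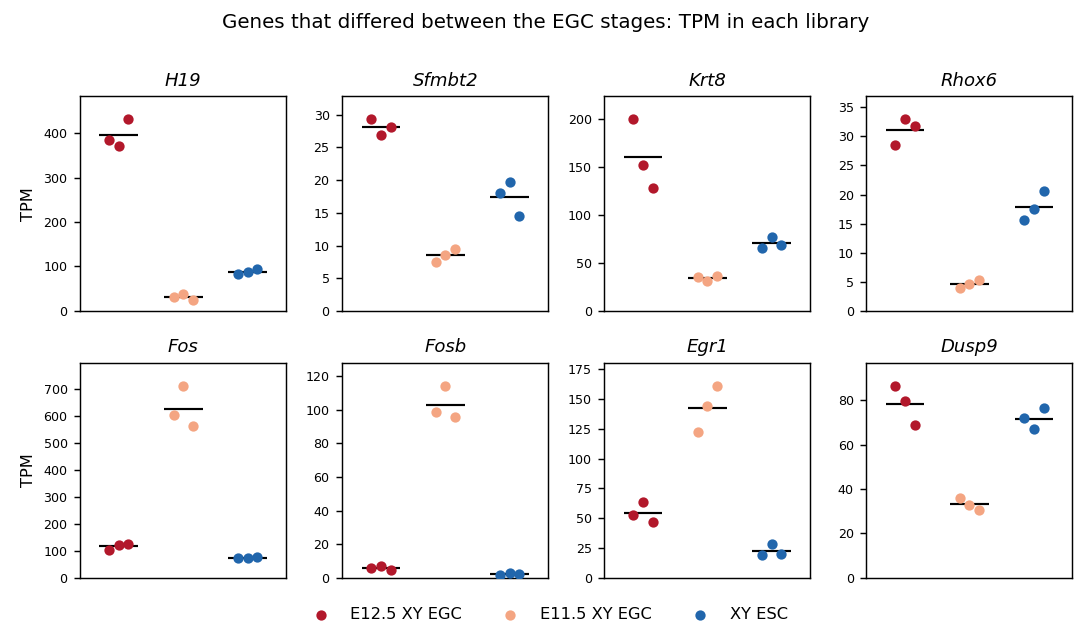
TPM of 8 genes that differed between E12.5 and E11.5 XY EGC, with points for single libraries, bars for group means and axes starting at 0. H19, Sfmbt2, Krt8 and Rhox6 lie on opposite sides of XY ESC in the EGC stages, while Fos, Fosb and Egr1 are highest in the E11.5 lines and Dusp9 is lowest there.

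**Figure D5:**
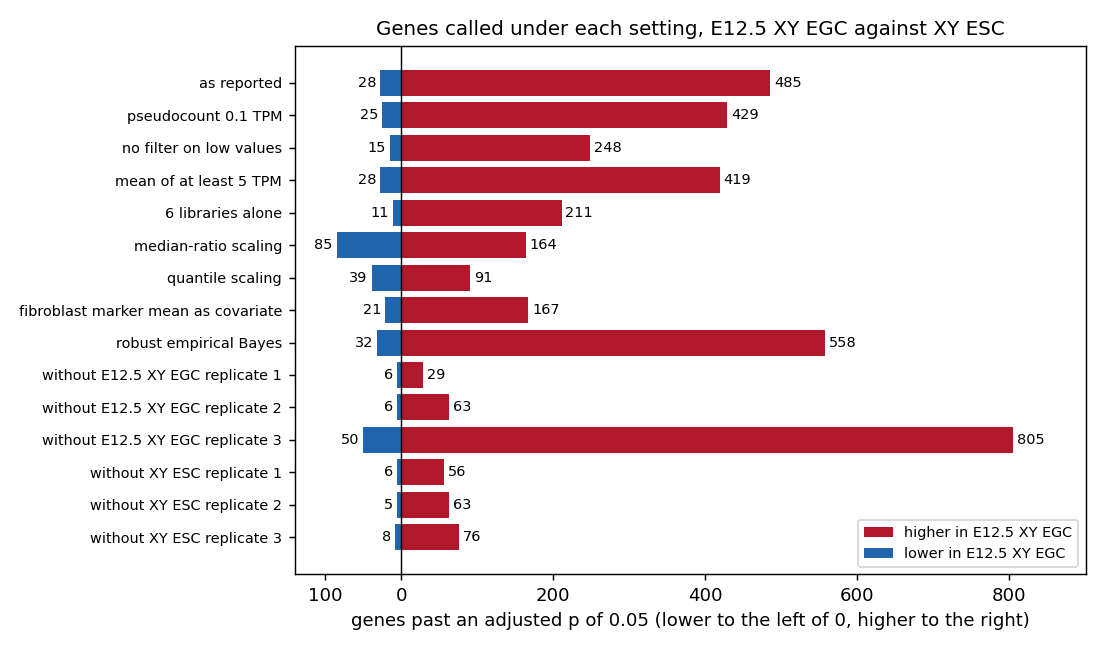
Genes called higher (right of 0) and lower (left of 0) in E12.5 XY EGC than in XY ESC under each setting. The count as reported is 485 higher and 28 lower, and leaving out a library gave 29 to 805 higher.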

How the data were processed

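Polyadenylated RNA of 15 libraries was sequenced as paired ends. The deposited values are TPM, made by the authors, for 34372 genes, and every library sums to 1000000. Per the submitters' processing notes, edgeR 3.8.6, HTSeq 0.6.0, STAR 2.3.0, Picard 1.100 and SAMtools 0.1.18.0 served on GRCm38, with roles not given in the sources used here. Stage and karyotype come from the table's header. No 2 libraries were identical. The table holds no counts, so depth is unknown and no intervals were computed.

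Values were analysed as log2(TPM + 1), which understates changes of low genes, with limma 3.58.1 in R 4.3.3 (mean-variance trend, 2-sided, Benjamini-Hochberg over all tested genes, threshold 0.05), with 1 mean per header label over 15 libraries and 9 residual degrees of freedom. Of the tested genes 178 passed the filter only through E12.5 XY EGC and 34 only through XY ESC. In simulated data for E12.5 XY EGC against XY ESC over 13033 genes, 95 of 100 changes of 1 on the log2 scale and 63 of 100 of 0.5 were recovered, with 7 false calls. The simulated noise was drawn separately for each gene and library, with no shift shared across a library. It therefore does not measure false calls that such shifts could bring in the real data. Genes were placed with GENCODE M21 (89.1% found). Figures used Python 3.11.15.

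The members and the 35 gene lists were chosen with earlier results of these data known. Lists are described by counts and medians. Named genes were Snrpn, Phlda2, Cdkn1c, Impact, Dusp9, Xist, Y-linked genes, the 12 largest called changes each way, 4 called members per list by p (or the 2 highest where none was called), the 6 most abundant genes changed 2-fold each way and the 5 largest stage differences each way, leaving out predicted genes; some genes the rule picks are not reported here. Genes given beyond this rule, most of them members of the imprinted, ERK, keratin and DNA methylation lists, were chosen after their values were seen. Alternatives were a pseudocount of 0.1, no filter, a mean of at least 5 TPM, the 6 libraries alone, median-ratio and quantile scaling, a fibroblast marker covariate, robust empirical Bayes and leaving out each library.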

Additional observations from a re-analysis of the deposited data

Results flagged for a closer look

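For 8 genes the effect against XY ESC went in opposite directions in the E12.5 and E11.5 XY EGC, each past the threshold, and the difference between the stages itself was tested in the same limma fit. The log2 difference of E12.5 minus E11.5 XY EGC was 3.65 for H19, 2.51 for Rhox6, 2.17 for Krt8, 2.06 for Rhox9, 1.72 for Nxf7, 1.62 for Sfmbt2, 1.04 for Krt19 and 0.61 for Igf2r. In each case the E12.5 lines were higher and the E11.5 lines lower than XY ESC. Several of the E12.5 calls against XY ESC were not steady. That of Igf2r held in 3 of 14 refits and those of Krt8, Rhox6 and Rhox9 in 4 of 14 each. The calls of H19 and Krt19 held in 9 of 14 each, that of Sfmbt2 in 13 of 14 and that of Nxf7 in 13 of 13. Nxf7, an X-linked gene of the RNA export factor family, was at 3.44, 2.71 and 3.11 TPM in E12.5 XY EGC, at 0.203, 0.256 and 0.254 TPM in E11.5 XY EGC and at 0.809, 0.614 and 0.662 TPM in XY ESC. Whether these differences belong to the stage or to the lines cannot be told apart. Groups of 3 libraries were not tested for single libraries that stand apart.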

How the results depend on the processing

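The count of genes higher in E12.5 XY EGC than in XY ESC, 485 as reported, was 248 with no filter on low values, 211 in the 6 libraries alone, 164 and 91 after median-ratio and quantile scaling and 167 once the mean of the fibroblast markers entered as a covariate. The count of lower genes, 28 as reported, was 15 with no filter, 11 in the 6 libraries alone and 85 after median-ratio scaling. At least 2-fold higher were 30 genes as reported, 53 with a pseudocount of 0.1 TPM, 16 and 12 after median-ratio and quantile scaling and 19 with the covariate. The 4 genes at least 2-fold lower numbered 4 to 6 in all settings. Leaving out 1 of the 6 libraries gave 29 to 805 higher, 5 to 50 lower and 10 to 39 at least 2-fold higher genes, the highest without E12.5 XY EGC replicate 3 and the lowest higher counts without replicate 1; the cause was not tested. Against E11.5 XY EGC, 2537 and 2369 genes were lower after median-ratio and quantile scaling, against 1506. Refits were counted for a set of 58 genes, most of them named above, which leaves out Dusp14, Ptpn11, Neurod1 and Rnf213. Some of the 58, such as Dusp9, Igf2 and Pou5f1, were not called as reported, and staying uncalled counts as the same side. Of 806 refits, 563 stayed on the same side of the threshold, 238 lost and 2 gained a call. Another 3 changed sign: Nanog to 0.005 after quantile scaling, and Eif2s3y, which ranged between -0.162 and 0.061 without 1 library. None of these 3 was called. Without read counts the share of the spread that comes from depth is unknown.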

Other observations

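Genes outside the imprinted lists that were called under every setting were all higher in E12.5 XY EGC, and 14 of them were found. They were chosen after their values were seen. They took in Pdgfa, a growth factor for fibroblasts, at 55.6, 50.4 and 45.7 TPM in E12.5 XY EGC against 30.6, 30.8 and 34.3 TPM in XY ESC, and Tinagl1, a matrix protein, at 24.1, 27.7 and 26.8 TPM against 13.3, 11.9 and 13.1 TPM. Bcl2l1, which protects from cell death, was at 36.6, 32.4 and 31.95 TPM in the EGC and 23.3, 22.7 and 21.2 TPM in the ESC. Ptch1, the receptor of hedgehog ligands, rose by 0.56 on the log2 scale, and Tert, the catalytic subunit of telomerase, by 0.67. The groups did not overlap for these 5 genes.

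On the X chromosome 26 of 468 tested genes were higher and none was lower in E12.5 XY EGC (5.56% called, limma; 12 were lower at an unadjusted p under 0.05), where 3.72% of all genes were higher and 0.215% lower and chromosomes 11 and 12 had 5.14% called each. The median log2 fold change of 0.08 equalled that of autosomal genes to 2 decimals. Of 9 tested Xlr genes, a family of near-identical copies whose levels are uncertain because counting can split their reads, 6 were among the 26. Xlr3c was at 17.8, 12.1 and 23.6 TPM in E12.5 XY EGC against 6.11, 1.79 and 4.96 TPM in XY ESC, and was called in none of the 6 fits without 1 library.

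Another 36 genes were at least 2-fold apart and not called, of which 16 were placed as processed pseudogenes and 18 were listed at 0 in at least 1 of the 6 libraries. The short feature mmu-mir-703 was at 3133, 6758 and 3765 TPM in E12.5 XY EGC, and XY ESC had 27319 TPM in replicate 1 and was close to 0 in the others.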
